A study of Homo sapiens with 2 samples.

Results

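BMP2 and the inhibitor of DNA binding genes ID1, ID2, ID3 and ID4 were searched for nearby EGR1 ChIP-seq intervals in t-HESC cells. An interval was assigned to a gene when its nearer edge lay within 10 kb of the gene, with all positions on GRCh37. Of these 5 genes, 4 had an interval, and their intervals numbered 7 of the 7709 in the deposited list. The genes were picked by name and not by a value of this list, but with earlier results of these data known. The data came from 1 chromatin immunoprecipitation (ChIP) library made with the EGR1 antibody Cell Signaling 4154, and the study also made 1 input library of sonicated chromatin DNA. Both were from untreated cells of t-HESC, a cell line derived from the stroma of the human endometrium and immortalised in culture. Both were grown in DMEM/F12 with 10% fetal bovine serum, antibiotics and 500 ng/ml puromycin. The series therefore asks where EGR1 sat on the genome of 1 line in growth medium. The cells had not been given a decidual stimulus, and neither RNA nor a second factor was analysed here, so the labelled cell type could not be set against markers. Neither library has a replicate and read depth is unknown, so the spread between cultures cannot be given.

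BMP2 is a secreted ligand of the transforming growth factor beta superfamily, and in mice its loss from the uterus prevents decidualization, the change of stromal cells into the cells that surround an implanting embryo. BMP ligands bind paired receptor kinases, which phosphorylate SMAD proteins. These enter the nucleus with SMAD4 and switch on target genes, among which the ID genes are the best known. ID proteins carry a helix-loop-helix domain without a DNA-binding region, so they capture E proteins and related partners and keep them off DNA. EGR1 is a zinc-finger factor that is induced within minutes by serum and growth factors and prefers GC-rich sites.

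The promoters of ID2 and ID4 are shown because they are the only ID promoters whose sequence held the EGR1 motif GCGNGGGCG, where N is any base and both strands were searched. They are RefSeq sequences on GRCh38.p14, from 250 bases before to 50 bases after the gene start, written along the gene. Capitals mark motif matches, which in both promoters were on the strand opposite to the gene and so read as the reverse complement. The ID2 sequence lies on the plus strand at chr2:8681806-8682105 and that of ID4 on the plus strand at chr6:19837120-19837419.

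ID2: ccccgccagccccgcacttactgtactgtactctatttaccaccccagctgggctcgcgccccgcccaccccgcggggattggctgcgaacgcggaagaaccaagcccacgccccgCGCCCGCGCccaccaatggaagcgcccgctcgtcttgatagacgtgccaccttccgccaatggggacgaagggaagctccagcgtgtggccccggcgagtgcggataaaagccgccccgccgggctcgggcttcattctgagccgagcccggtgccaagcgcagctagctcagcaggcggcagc

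ID4: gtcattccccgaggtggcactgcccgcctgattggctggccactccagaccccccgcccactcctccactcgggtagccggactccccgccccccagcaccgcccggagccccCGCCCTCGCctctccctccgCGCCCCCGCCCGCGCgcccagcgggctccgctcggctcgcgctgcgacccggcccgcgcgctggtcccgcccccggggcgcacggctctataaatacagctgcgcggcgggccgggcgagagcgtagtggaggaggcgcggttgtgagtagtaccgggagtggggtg

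ID2 held 1 match, GCGCGGGCG, from position -134 to -126. ID4 held 3, of which GCGAGGGCG lay at -137 to -129, GCGGGGGCG at -117 to -109 and GCGCGGGCG at -111 to -103. The last 2 of these overlap. The promoters of ID1 and ID3 held none. Among the 22199 protein-coding promoters of the same length in the reference table, which belong to 15843 genes, 12.1% held at least 1 match. That share is not matched for GC content, and the motif is nearly all G and C. The GC content of ID4 was above that of 90.4% of these promoters, and that of ID2 above 71.0%. The part of GC content in the matches was not tested. These letters are a description of reference sequence, and a match does not show that EGR1 bound there. The intervals are on another build, so the matches were not placed on them by coordinate. By distance from the gene start, the nearest interval ended 373 bp before ID2 and 184 bp before ID4. Both distances are farther upstream than every match shown. The gene starts come from different gene models, whose lengths differ by 65 bp for ID2 and -13 bp for ID4.

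The highest summit scores near the 5 genes, in this 1 library and with no error known, were at ID2. The score is a whole number that the authors gave to each summit, with no stated unit, and it is compared here only within the list. The higher-scored of its intervals lay at chr2:8821082-8821740 and had a score of 59. It was 659 bp wide, and 90.5% of all summit scores in the list were lower. Its summit lay 609 bp upstream of the ID2 start, and its nearer edge 373 bp upstream. The other ID2 interval, at chr2:8819124-8819839, had a score of 47 and was 716 bp wide, with 84.4% of all scores lower. Its summit lay 2625 bp upstream of the start. Both intervals thus lay before the gene, and their summits were 2016 bp apart with a gap of 1243 bp between the edges. No interval lay within the ID2 gene itself. In the RefSeq gene table for GRCh38.p14, the next gene on that side is ID2-AS1, a long noncoding RNA gene. Its distance from these intervals was not analysed here.

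ID1 had the most intervals, 3, and the one inside the gene had the lowest score of them. ID1 is the classic early target of BMP signalling through the SMADs. The interval inside the gene, at chr20:30193419-30194007, had a score of 24 and was 589 bp wide. Its summit lay 482 bp after the ID1 start, and its whole width fell within the 1233 bp of the gene. The highest-scored ID1 interval, at chr20:30196030-30196724, had a score of 41, with 79.2% of all scores lower. It began 1712 bp beyond the far end of the gene, and its summit lay 3250 bp after the start. The third, at chr20:30200658-30200938, had a score of 29 and was the narrowest of the 7 at 281 bp. Its summit lay 7682 bp after the ID1 start. No ID1 interval lay upstream of the gene within the limit. The next genes beyond the end of ID1 in the GRCh38.p14 table are MIR3193, a microRNA gene, and then the protein-coding gene COX4I2.

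ID3 and ID4 had 1 interval each, close to the gene start and of middling or low score. The ID3 interval, at chr1:23885712-23886151, had a score of 27 and was 440 bp wide. ID3 is read from the minus strand. By the GRCh37 start used here, the summit lay 205 bp after the ID3 start, inside the gene, which another gene model could change. The score was just above the median of 26 for all summits, with 52.8% of them lower. The ID4 interval, at chr6:19837147-19837433, had a score of 22, the lowest of the 7, and was 287 bp wide. Its summit lay 337 bp before the ID4 start, and 32.01% of all scores were lower. By the GRCh37 gene starts used here, it was the only one of the nearest intervals that reached into the 250 bases before the start. It covered 67 of them.

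**Figure D1:**
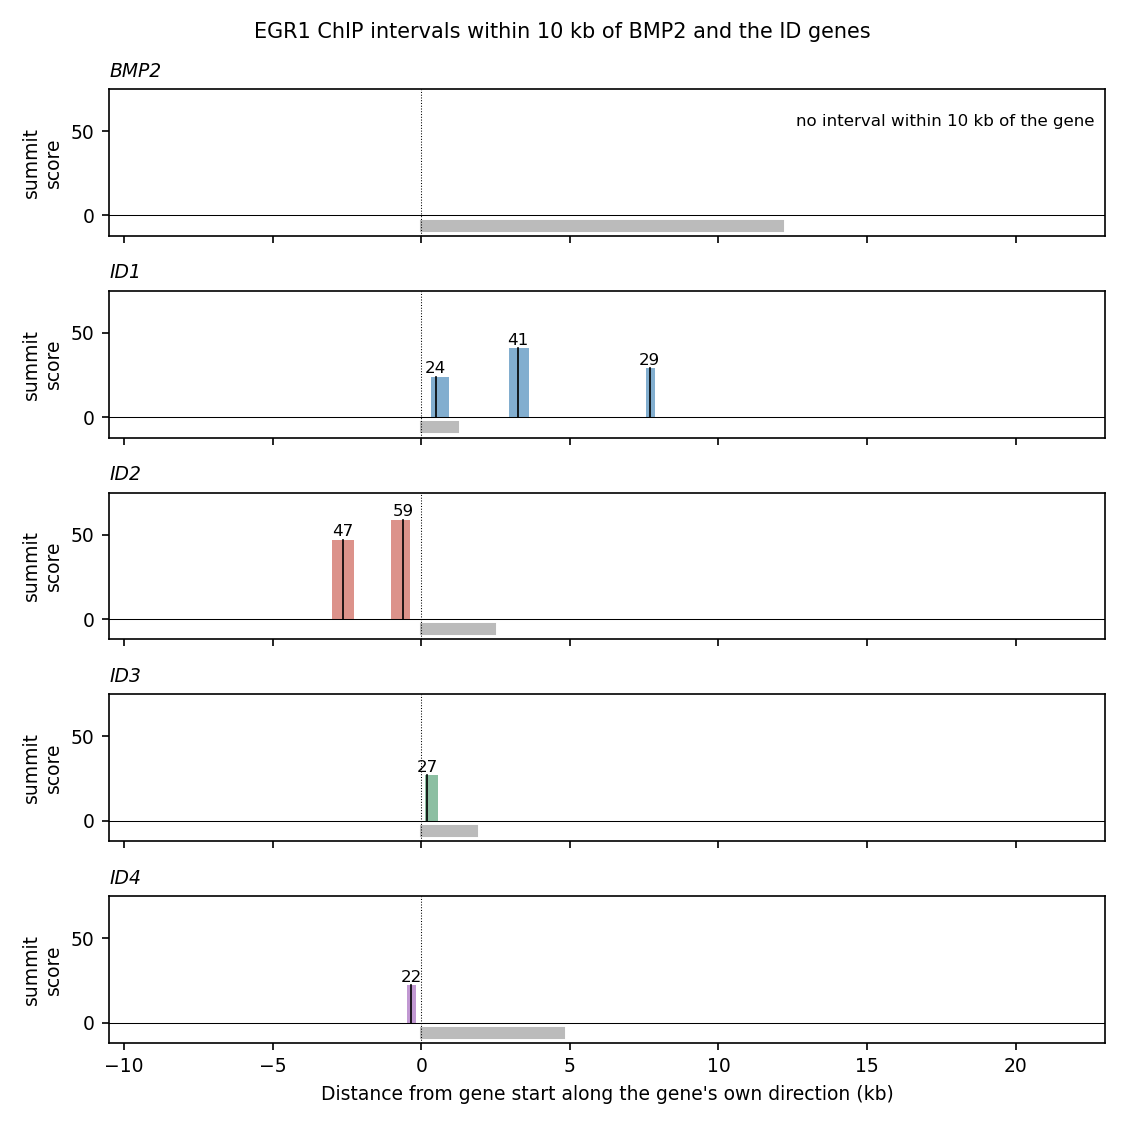
Intervals within 10 kb of each gene, drawn by distance from the gene start along the gene's own direction (kb, horizontal) and by summit score (vertical). Coloured boxes span each interval, black lines mark summits, grey bars are the genes, and BMP2 is drawn from its lower coordinate. ID2 carries scores of 47 and 59 before its start, ID1 carries 24, 41 and 29 at and beyond the gene, ID3 carries 27 and ID4 carries 22, each near the start, and BMP2 has no interval.

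BMP2 itself had no EGR1 interval nearby. The gene lies at chr20:6748745-6760910, and the nearest interval ended 762049 bp below its lower end. That interval, at chr20:5986399-5986696, had a score of 20. On the other side the nearest interval began 1239397 bp beyond the gene, at chr20:8000307-8000649, with a score of 50. The stretch without an interval around BMP2 was thus 2013611 bp long. Of the 7686 stretches between neighbouring intervals on the same chromosome, 315 were at least that long, against a median of 83039.5 bp, and on chromosome 20 there were 7 of 189. Such long stretches together made up 43.6% of the length between the chromosomes' outermost intervals. That length counts sequence of every kind, with or without genes. How often other genes lie in such a stretch was not analysed here. In the GRCh38.p14 table the neighbours of BMP2 are long noncoding RNA genes on both sides, and the nearest protein-coding ones are FERMT1 and HAO1. An interval missing from the list means that none passed the authors' threshold in this library, whose depth is unknown.

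All 4 ID genes had an interval within 373 bp of the gene or overlapping it. For ID1 and ID3 the nearest interval overlapped the gene, for ID4 it lay 184 bp away and for ID2 373 bp away. Over the sequence between the first and last interval of each chromosome, 4.21% of positions lay within 10 kb of an interval. For stretches as long as each gene on its own chromosome, the share within that distance was 7.84% for BMP2, 5.37% for ID1, 3.93% for ID2, 5.47% for ID3 and 4.32% for ID4. These shares describe sequence of every kind. How often other genes had an interval within 10 kb was not analysed here, so the 4 of 5 is not set against genes in general. Within 2 kb of the genes there were 5 intervals, at the same 4 genes, where 1.001% of positions lay within that distance of an interval.

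The 10 kb limit fell in a stretch without an interval for each ID gene. The farthest interval inside the limit was the third of ID1, 6340 bp from the gene. The next one outside was also at ID1, 32147 bp below the gene, with a score of 26. For ID2 the next was 47848 bp below the gene, with a score of 56. The next interval was 133372 bp away for ID3 and 561590 bp away for ID4, with scores of 22 and 24. Within 500 kb there were 4 intervals for ID1, 3 for ID2, 11 for ID3, 1 for ID4 and 0 for BMP2. Within 1 Mb on either side, the density was 6.496 intervals per Mb around ID1, 6.494 around ID3, 2.996 around ID2, 0.998 around ID4 and 0.994 around BMP2. The whole list averaged 2.65 per Mb, so the single ID4 interval lay in a sparse neighbourhood and that of ID3 in a dense one.

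**Figure D2:**
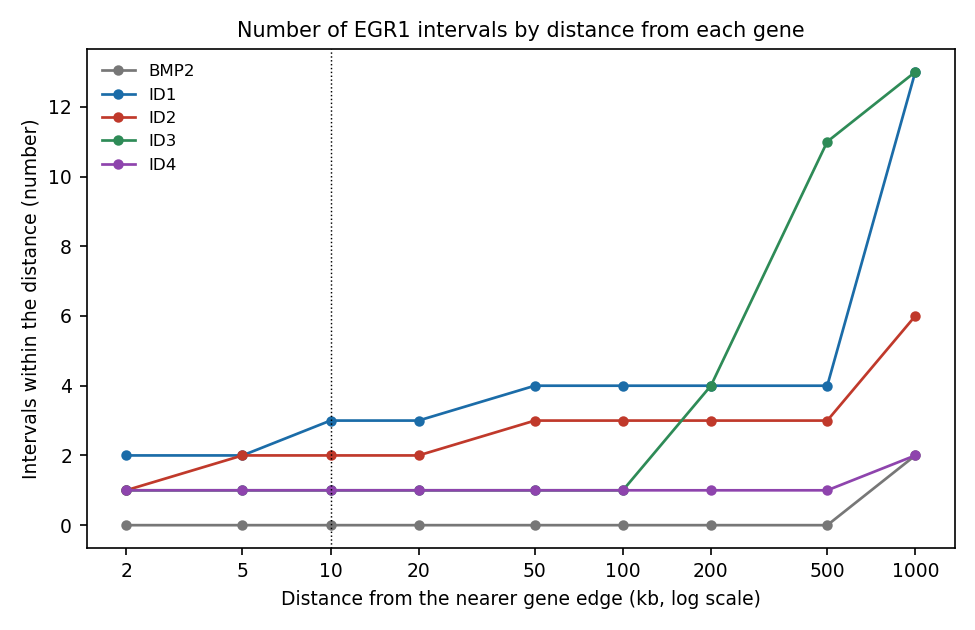
Number of EGR1 intervals (vertical) within a given distance of the nearer gene edge (kb, log scale) for each gene, with a dotted line at the 10 kb limit. At 500 kb BMP2 is still at 0, ID4 at 1, ID2 at 3 and ID1 at 4, and ID3 has reached 11.

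The scores of the 7 intervals ran from below the median of the list to just above its 90th percentile, and none was near the maximum. Their scores were 22 to 59 with a median of 29, against 11 to 336 with a median of 26 for all 7709. A score at or above 26 was found in 5 of the 7 (71.4%) and in 51.0% of the whole list. A score at or above 57, the 90th percentile, was reached by the higher-scored ID2 interval alone, and by 10.2% of the whole list. By gene, the highest scores ran from ID2 at 59 through ID1 at 41 and ID3 at 27 to ID4 at 22. With 1 library and a score of unstated unit, no error can be put on these values, so neighbours in that order, ID3 and ID4 above all, cannot be told apart.

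Most of the ID intervals were wider than the typical interval. Their widths ran from 281 to 716 bp with a median of 589 bp, against 343 bp for the whole list, and 5 of the 7 were above that median. The interval inside ID1 was wide for its score. Among the 329 intervals with a score of 24 the median width was 320 bp (quartiles 255 and 414 bp), and 94.2% of them were narrower than its 589 bp. The ID3 interval, at 440 bp, was wider than 77.5% of the 258 intervals that shared its score of 27. In contrast, the outermost ID1 interval, at 281 bp, was wider than only 22.9% of the 192 with a score of 29. Fragments of 200 to 300 bp were selected on the gel, so a width in that range is about the length of 1 fragment. The summit in ID3 lay toward the gene start, at 83.9% of the interval's width from its lower coordinate, and that in ID1 also did, at 25.5%. Summit positions divided evenly by 32 bp in 6 of the 7 intervals and in 77.2% of the whole list, so the summits lie on a grid of about that step. How far a summit lies from the true centre of binding was not measured.

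**Figure D3:**
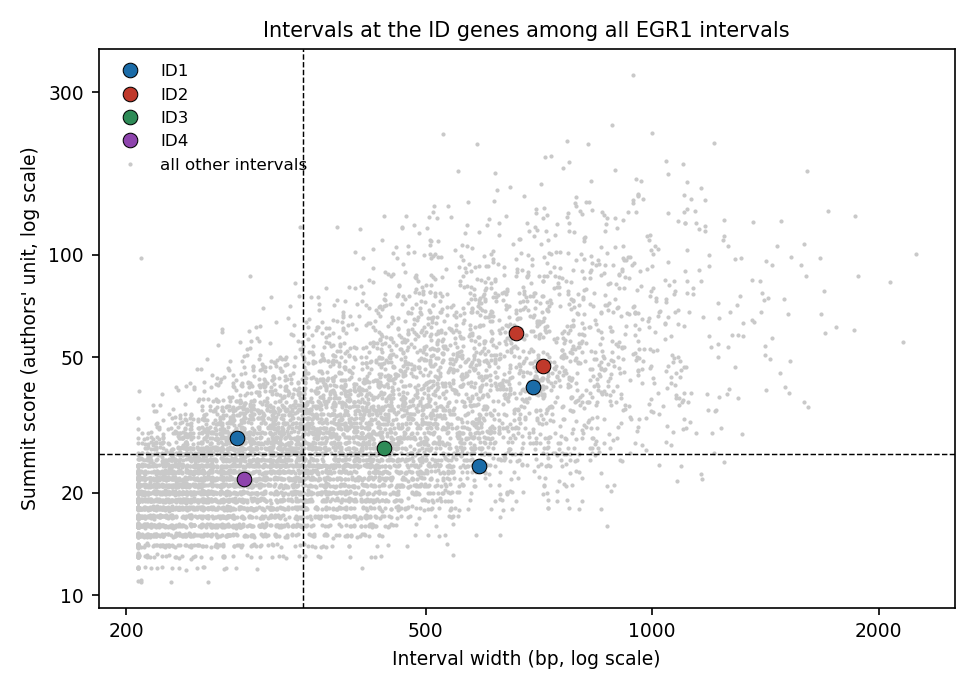
Summit score (vertical, log scale, authors' unit) against interval width (bp, log scale) for the 7 intervals at the ID genes, coloured by gene, and for all other intervals in grey, which are shifted slightly up or down to part equal scores. Dashed lines are the medians of the whole list, 26 and 343 bp. The ID2 points are high and wide, the ID4 point is low and narrow, and the ID1 interval inside the gene is low and wide.

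The ID1 and ID2 intervals lay in groups, and those of ID3 and ID4 did not. When intervals were joined wherever neighbouring edges lay within 10 kb, ID1 fell in a group of 3, ID2 in a group of 2, and ID3 and ID4 stood alone. Of the 5942 groups in the list, 5.22% had 3 or more intervals and 16.2% had 2. Counted by interval, such grouping was more common, and 60.57% of all intervals stood alone. Groups of 2 held 24.98% of the intervals, groups of 3 held 8.02% and groups of 4 or more held 6.43%. The ID1 group spanned 7520 bp, and 4.50% of the 7663 runs of 3 neighbouring intervals were that short. The ID1 intervals were taken for lying within 10 kb of 1 gene, which limits their span, and the other runs were not so limited. This share is therefore partly set by the rule. Its highest score of 41 was close to the median of 42.5 over the 206 groups of 3. The ID2 group, with a highest score of 59, was above 84.2% of the 963 groups of 2, whose median was 32. Single intervals had a median score of 26, against which ID3 had 27 and ID4 had 22. Whether close intervals are separate sites or pieces of 1 enriched stretch was not tested.

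The gene starts used here come from 1 set of GRCh37 coordinates, and another gene model would shift the distances. The ID3 gene is 1865 bp long in these coordinates and 1576 bp in the GRCh38.p14 table, a difference of 289 bp, which is larger than the 205 bp from its start to its summit. The lengths differed by -395 bp for BMP2, 65 bp for ID2, 11 bp for ID1 and -13 bp for ID4, where a minus sign means longer in GRCh38.p14. Whether the intervals lie in exons, introns or untranslated regions was not analysed here.

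A TATA element was found in 3 of the 4 ID promoters. The letters TATAA, searched on the gene's own strand, lay at -31 to -27 in ID1 and at -29 to -25 in both ID3 and ID4. These exact letters were absent from the ID2 window, which reads gataa at the place of the ID1 match. Among protein-coding promoters, 12.4% held these letters. The stretches below, from 50 bases before to 10 bases after each gene start, are shown to compare that element, which is in capitals.

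ID1: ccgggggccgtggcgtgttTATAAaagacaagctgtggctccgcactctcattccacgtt

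ID2: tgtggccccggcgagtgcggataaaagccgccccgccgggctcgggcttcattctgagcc

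ID3: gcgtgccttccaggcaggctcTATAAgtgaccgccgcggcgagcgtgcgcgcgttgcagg

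ID4: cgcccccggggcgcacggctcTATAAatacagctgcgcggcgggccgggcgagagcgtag

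The GC box GGGCGG, a site for SP and KLF factors, was searched on both strands and was found in ID1, ID2 and ID4, or 3 of 4, against 56.3% of protein-coding promoters. ID4 held 6 matches, 2 of which share bases with EGR1 motif matches, and ID1 and ID2 held 2 each. The letters CCAAT, on either strand, were also in ID1, ID2 and ID4, against 34.7% of protein-coding promoters, with 3 matches in ID2. GC content was 76.3% in the ID4 promoter, 69.0% in ID2, 62.7% in ID1 and 59.7% in ID3, where the median protein-coding promoter had 62.3%. The order of GC content, with ID4 highest, was not that of the scores, with ID4 lowest. These 3 further motifs were chosen after the sequences had been seen, and 4 promoters are too few to read a relation from.

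**Figure D4:**
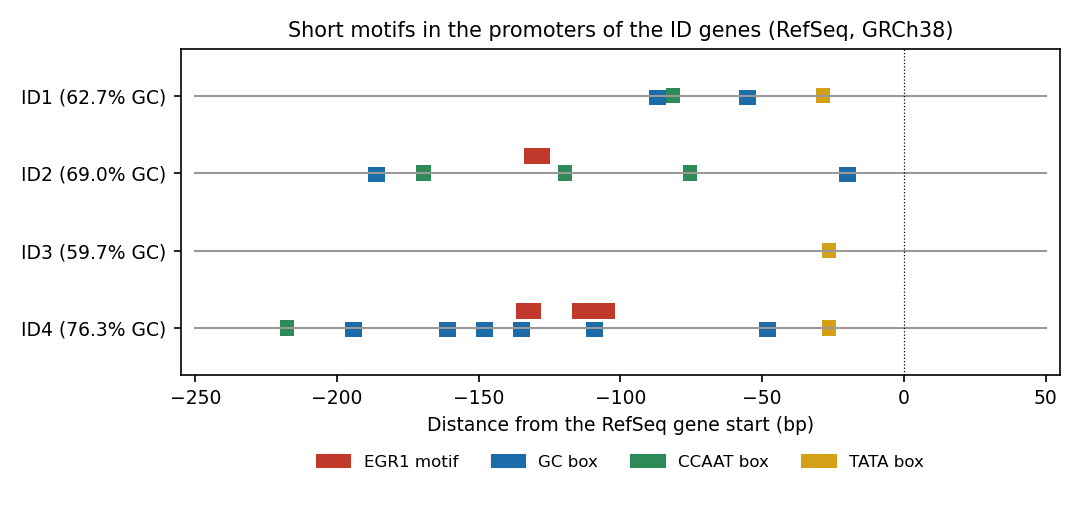
Matches to 4 short motifs (coloured boxes) by distance from the RefSeq gene start (bp) in the promoters of ID1, ID2, ID3 and ID4 on GRCh38.p14, with the GC content of each window beside its name. EGR1 motif matches, drawn above the line, are in ID2 and ID4 only, and the TATA element stands at nearly the same place in ID1, ID3 and ID4.

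Among other genes of the BMP pathway, only promoter sequence could be examined, because their GRCh37 positions were not used here. The 19 genes examined had 32 promoters in the reference table, and 6 of these promoters (18.8%) held GCGNGGGCG, against 12.1% of all protein-coding ones. None of the 5 promoters of the ligands BMP4, BMP6 and GDF5 held it, and none of the 10 promoters of the 6 receptors. It was present in SMAD4, the shared partner of the SMADs, and in SMAD9, a SMAD that BMP receptors phosphorylate, but not in SMAD1 or SMAD5. The inhibitory SMADs, SMAD6 and SMAD7, had none in 4 promoters. All 4 of the secreted or membrane inhibitors examined had a promoter with a match, in 4 of 5 promoters. These are CHRD, GREM1 and FST, which bind ligands outside the cell, and BAMBI, a receptor-like protein without a kinase. The promoters of these inhibitors had a GC content of 63.7 to 81.3%, against 49.3 to 68.7% for the ligands and 41.3 to 76.7% for the receptors. The part of GC content in the motif counts was not tested. The genes were listed by their known role in the pathway, the numbers are small, and no contrast between roles was tested. Whether EGR1 intervals lay at these genes was not analysed here.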

How the data were processed

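EGR1 ChIP-seq of untreated t-HESC cells gave 1 list of intervals and 1 list of their summits. Per the labels' protocols, fragments of 200 to 300 bp were cut from a 2% agarose gel and amplified by 18 PCR cycles before NextSeq sequencing. The submitters' processing notes name GRCh37.p2 as the build and BWA, MACS and MACS2 2.1.0 as tools. Their options, threshold and handling of duplicates were not given in the sources used here. For each summit the authors deposited 1 score, of unstated unit, and interval positions (unit: other), which were used as deposited with starts made 1-based.

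Gene positions were the fixed GRCh37 coordinates that define the 5 genes. Distances are differences between nearest edges, and 0 where they overlap. Strands, promoters and neighbouring genes are from RefSeq tables on GRCh38.p14. The 4 ID genes matched the promoter table by symbol, and BMP2 did not. No position was converted between builds. All 5 genes were named, whatever their values. The genes and lists were chosen with earlier results of these data known. Counts and shares are descriptions, and no test was made. The distance, joining and motif functions were checked on simulated data. Alternatives varied the distance, score limit, joining, placing of summits, point of measurement and motif. Python 3.11.15, numpy 2.4.6, pandas 2.3.3 and matplotlib 3.10.9 were used.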

Additional observations from a re-analysis of the deposited data

How the results depend on the processing

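The number of genes with an interval was 4 at every distance from 2 to 100 kb, with the summit in place of the edge and from the gene start alone. With scores limited to 26 or more it was 3, since ID4 was lost, and with scores limited to 57 or more it was 1, since ID2 alone was left. The 7 intervals became 5 at 2 kb, 6 at 5 kb, 9 at 50 and 100 kb, 5 under the score limit of 26 and 1 under that of 57. Joining neighbours within 1000 bp left 7. A higher score limit lowers these counts by construction. With the summit in place of the edge, the distance from the gene start was larger for every ID gene. It was 482 bp, not 333 bp, for ID1 and 609 bp, not 373 bp, for ID2. For ID3 it was 205 bp, not 134 bp, and for ID4 337 bp, not 184 bp. The EGR1 motif was in 2 of the 4 ID promoters on both strands together, in 0 on the gene strand alone and in 0 when GCGTGGGCG was required exactly, a form found in 1.05% of protein-coding promoters. The highest score of each gene did not move at a score of 26 or more, except for ID4, which then had no interval. No paired analysis was possible because there is 1 ChIP library and no test. With no replicate and no read depth, every value holds for this library alone.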
